A study of Mus musculus with 10 samples.

Results

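The interferon-induced transmembrane (IFITM) genes of tumour-associated macrophages were followed across vehicle and JHU083 treatment. The family was taken by name: the loci whose listed symbols include Ifitm1, Ifitm2, Ifitm3 or Ifitm6, which gives 4 members among 46956 loci that carry a symbol. The family was chosen by the measured fall of Ifitm1 in this same contrast, so the values of Ifitm1 are given as a description without a test. Ifitm2, Ifitm3 and Ifitm6 were included by name and were tested.

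All mice were BALB/cJ and carried tumours of 4T1, a single murine mammary carcinoma line, injected into the mammary fat pad. The 5 control samples came from mice given PBS as vehicle. The 5 treated samples came from mice given JHU083, a prodrug of the glutamine antagonist 6-diazo-5-oxo-L-norleucine, at 1 mg/kg from day 7 to day 13. Tumours were taken on day 14, and live CD45+ CD11b+ F4/80+ cells lacking CD8, Ly6C and Ly6G were sorted for RNA sequencing. The labels name no deleted or introduced gene, and they do not state that each sample is a separate mouse, so p-values measure the spread between these samples.

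IFITM proteins are small membrane proteins induced by interferon. They sit in the plasma membrane or in endosomes, where they hinder the fusion of an incoming enveloped virus with the host membrane. IFITM1 is found mainly at the cell surface, whereas IFITM2 and IFITM3 carry a sorting signal that takes them to endosomes, and macrophages are among the cells in which type I and type II interferons induce them. Transcription of such genes is driven by STAT and IRF factors, which bind the interferon-stimulated response element (ISRE) and the gamma-activated site (GAS).

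The 4 members lie together on chromosome 7 of the GRCm38 build, within 63.1 kb. In GENCODE M21, Ifitm2 runs from 140954837 to 140955987 on the minus strand and Ifitm1 from 140967221 to 140969825 on the plus strand. Ifitm3 runs from 141009586 to 141010770 and Ifitm6 from 141015699 to 141017924, both on the minus strand. Each is a protein-coding gene with 2 or 3 exons in its annotated transcripts. The coding sequence of Ifitm1 was 82.1% identical to that of Ifitm2 and 82.1% to that of Ifitm3, and 68.8% identical to that of Ifitm6. The least alike pair was Ifitm3 and Ifitm6, at 63.2%. The deposited tables join Ifitm2 with Ifitm5 and RP24-243J4.5 in 1 locus, so its values cover all 3 symbols. Ifitm1, Ifitm3 and Ifitm6 each have a locus of their own.

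DNA near 1 start of each member is shown because interferon induces the family and its members did not fall to the same extent. Each stretch begins 150 bases before the RefSeq start (GRCm38.p6, from RefSeq) and ends where the first GENCODE exon begins. It is written 5′ to 3′ on the strand of the gene, with matches to an ISRE-type motif (GAAA, any 2 bases, GAAA) or a GAS-type motif (TTCNNNGAA) in capitals. For Ifitm1 and Ifitm6 the stretch lies inside the gene, in an intron of their longer transcripts.
Ifitm1 (chr7:140967926-140968027, plus strand): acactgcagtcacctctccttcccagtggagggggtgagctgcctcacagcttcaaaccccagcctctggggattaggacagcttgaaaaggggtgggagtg
Ifitm2 (chr7:140955988-140956111, minus strand): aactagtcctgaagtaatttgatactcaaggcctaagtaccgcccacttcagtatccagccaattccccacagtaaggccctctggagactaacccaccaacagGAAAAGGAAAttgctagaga
Ifitm3 (chr7:141010771-141010894, minus strand): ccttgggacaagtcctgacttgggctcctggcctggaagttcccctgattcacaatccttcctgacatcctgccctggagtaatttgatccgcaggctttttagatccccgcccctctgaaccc
Ifitm6 (chr7:141016909-141017042, minus strand): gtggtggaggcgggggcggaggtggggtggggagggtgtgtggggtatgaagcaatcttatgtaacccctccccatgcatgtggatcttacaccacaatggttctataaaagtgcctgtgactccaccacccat
Ifitm3 and Ifitm6 also had matches in the part that GENCODE annotates as exon. Those of Ifitm3 lie from 2 to 28 bases downstream of the RefSeq start base, and that of Ifitm6 lies just before its start.
Ifitm3 site (chr7:141010716-141010742, minus strand): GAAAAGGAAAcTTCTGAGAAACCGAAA
Ifitm6 site (chr7:141016894-141016902, minus strand): TTCCTTGAA
The Ifitm3 site holds 2 ISRE-type matches and, between them, 1 GAS-type match that overlaps the start of the downstream one. Both strands were searched over the 300 bases from 250 before to 50 after the RefSeq start. In this window Ifitm2 had 1 ISRE-type match, Ifitm6 had 1 GAS-type match and Ifitm1 had 0 of either. Transcripts of Ifitm1 that start at 140967221, and of Ifitm6 that start at 141017558 and 141017924, have other upstream DNA, which was not searched here. The ISRE-type motif was present in 3.44% of all 32851 promoters of the RefSeq table and in 50% of the 34 promoters of interferon-stimulated genes. The GAS-type motif was present in 8.3% of all promoters and in 20.6% of those 34. A match describes these letters and is not evidence of binding.

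Libraries held 11147723 to 15740487 fragments, and levels are given as CPM, the count of a locus relative to the library total after TMM scaling. The macrophage markers were high in both groups: their summed level was 20000 to 24900 CPM in vehicle samples and 25200 to 32700 CPM in JHU083 samples. Of 11 macrophage markers, 0 fell and 5 rose, against 18.3% and 18.4% of the 12500 loci tested. The largest log2 fold change, 0.97, was at the phagocytic receptor gene Mertk. In 3 vehicle samples (2, 4 and 5) and 2 JHU083 samples (1 and 3) no fragment was listed at the ribosomal RNA loci, Gm42418 and Rn18s-rs5, whereas the other samples had them, so each member was also compared within these sets of samples.

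JHU083-treated samples had less RNA of all 4 members. Ifitm1 was 9.84-fold lower, Ifitm3 2.79-fold lower, Ifitm6 2.98-fold lower and Ifitm2 1.36-fold lower. The 3 tested relatives, 3 of 3, passed the test in the downward direction, as did 18.3% of the 12500 loci tested; 36.7% of loci passed in either direction. Over all loci the median log2 fold change was 0.01. In sorted bulk samples, fewer cells of a type and less RNA per cell cannot be told apart.

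Ifitm1 RNA stood at 157, 120, 94, 131 and 160 CPM in vehicle samples 1 to 5. In JHU083 samples 1 to 5 it stood at 20.6, 8.43, 12.1, 13.8 and 12.2 CPM. The highest treated sample lay far below the lowest vehicle sample. The mean went from 132 ± 27.5 CPM to 13.4 ± 4.46 CPM (SD, n = 5 each), a log2 fold change of -3.30 with a standard error of 0.21. Only 4 of the 12500 loci had a lower log2 fold change, and 4.99% of loci were at -1 or lower. The counts behind these levels were 1246 to 2319 fragments in vehicle samples and 123 to 302 in treated samples.

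Ifitm3, the member best known for blocking viruses in endosomes, was the next most affected of the abundant members. Its levels in vehicle samples 1 to 5 were 514, 412, 312, 396 and 512 CPM. In the 5 JHU083 samples they were 206, 132, 153, 142 and 137 CPM. The groups did not overlap, which was also so for 11.1% of all loci in the downward direction. The mean of 429 ± 85.3 CPM became 154 ± 30 CPM (SD, n = 5 each), and Ifitm3 fell by 1.48 on the log2 scale with a standard error of 0.15 (edgeR quasi-likelihood test, adjusted p = 8.86e-06).

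Ifitm2, the endosomal relative of Ifitm3, had the smallest difference. Vehicle samples 1 to 5 had 447, 398, 367, 409 and 445 CPM. JHU083 samples 1 to 5 had 369, 267, 355, 271 and 262 CPM. The groups overlapped, since treated sample 1 lay just above vehicle sample 3. The mean of 413 ± 33.5 CPM became 305 ± 52.7 CPM (SD, n = 5 each), and Ifitm2 fell by 0.44 on the log2 scale with a standard error of 0.11 (edgeR, adjusted p = 0.00561). Within the samples with ribosomal RNA loci at 0 the log2 fold change was -0.20 (edgeR, adjusted p = 0.295), and within the others it was -0.62 (edgeR, adjusted p = 0.0048).

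Ifitm6 was scarce in these cells. Its levels were 4.07, 3.43, 2.41, 1.91 and 2.9 CPM in the vehicle samples and 1.43, 0.206, 1.12, 1.15 and 1.05 CPM in the JHU083 samples. The lowest treated sample rested on 3 fragments. The groups did not overlap, as was so for 11.1% of all loci in the downward direction. The mean of 2.95 ± 0.846 CPM became 0.99 ± 0.462 CPM (SD, n = 5 each), and Ifitm6 fell by 1.57 on the log2 scale with a standard error of 0.35 (edgeR, adjusted p = 0.00333). Within the samples with ribosomal RNA loci at 0 its log2 fold change was -1.10 (edgeR, adjusted p = 0.131), and within the others it was -2.03 (edgeR, adjusted p = 0.02).

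**Figure D1:**
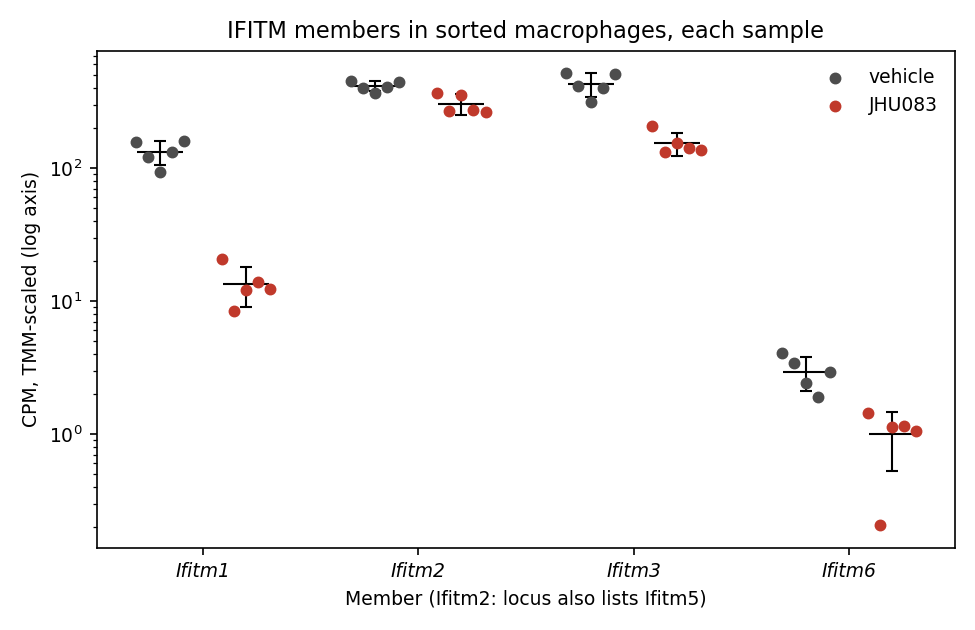
TMM-scaled CPM (log axis) of each IFITM member in each sample, with vehicle in grey and JHU083 in red, and with the mean and SD of 5 samples as bars. The treated samples lie below all vehicle samples for Ifitm1, Ifitm3 and Ifitm6, while the groups of Ifitm2, whose locus also lists Ifitm5, overlap. Of all loci tested, 11.1% did not overlap in this direction.

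Ifitm1 and Ifitm3 kept their direction within both sets of samples. Among samples with ribosomal RNA loci at 0 the log2 fold changes were -3.06 for Ifitm1 and -1.29 for Ifitm3 (edgeR, adjusted p = 0.00346 for Ifitm3). Among the others they were -3.46 and -1.60 (edgeR, adjusted p = 0.000278 for Ifitm3).

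The relatives were then compared with each other through the ratio of their fragments in the same sample, which does not depend on how libraries are scaled. The log2 ratio of Ifitm3 to Ifitm2 was 0.03 ± 0.18 in vehicle samples and -0.99 ± 0.14 in JHU083 samples (SD, n = 5 each). Ifitm3 thus fell further than Ifitm2, by 1.02 on the log2 scale (exact two-sided permutation test, p = 0.00794, the smallest it can give; 0.0119 adjusted over 3 pairs). The ratio of Ifitm6 to Ifitm2 differed by -1.32 in the same direction, with the same p-values from the exact test. Without JHU083 sample 2, whose Ifitm6 rested on 3 fragments, this difference was -0.86. Between Ifitm6 and Ifitm3 the ratio differed by -0.30, and no difference was detected (exact permutation test, p = 0.754). Relative to Ifitm3, the log2 ratio of Ifitm1 was -1.70 ± 0.07 in vehicle samples and -3.56 ± 0.26 in treated samples (SD, n = 5 each), which is a description since Ifitm1 was chosen for its fall.

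Levels of different genes can be set side by side only per length, for which the deposited FPKM values were used. In vehicle samples Ifitm2 and Ifitm3 were nearly level, at 866 ± 67.5 and 854 ± 168 FPKM (SD, n = 5), a difference smaller than their spread. Ifitm1 followed at 331 ± 69.3 FPKM and Ifitm6 was last at 6.02 ± 1.76 FPKM. In JHU083 samples the order was Ifitm2 at 639 ± 110 FPKM, Ifitm3 at 307 ± 62.1 FPKM, Ifitm1 at 30.7 ± 10.7 FPKM and Ifitm6 at 2.03 ± 0.947 FPKM (SD, n = 5), with each neighbour apart by more than its spread.

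The summed level of the 4 members was 1640 to 2358 FPKM in vehicle samples and 850 to 1252 FPKM in treated samples. Ifitm1 made up 16% of that sum in vehicle samples and 3.1% in JHU083 samples; by CPM per kilobase of the longest transcript these shares were 10.5% and 2.13%. The share of Ifitm3 was 41.3% in vehicle and 31.4% in treated samples. Ifitm2 made up 42.4% in vehicle samples and 65.3% in treated samples, although its own level was lower there. These shares are descriptions, since the fall of Ifitm1 enters each of them.

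**Figure D2:**
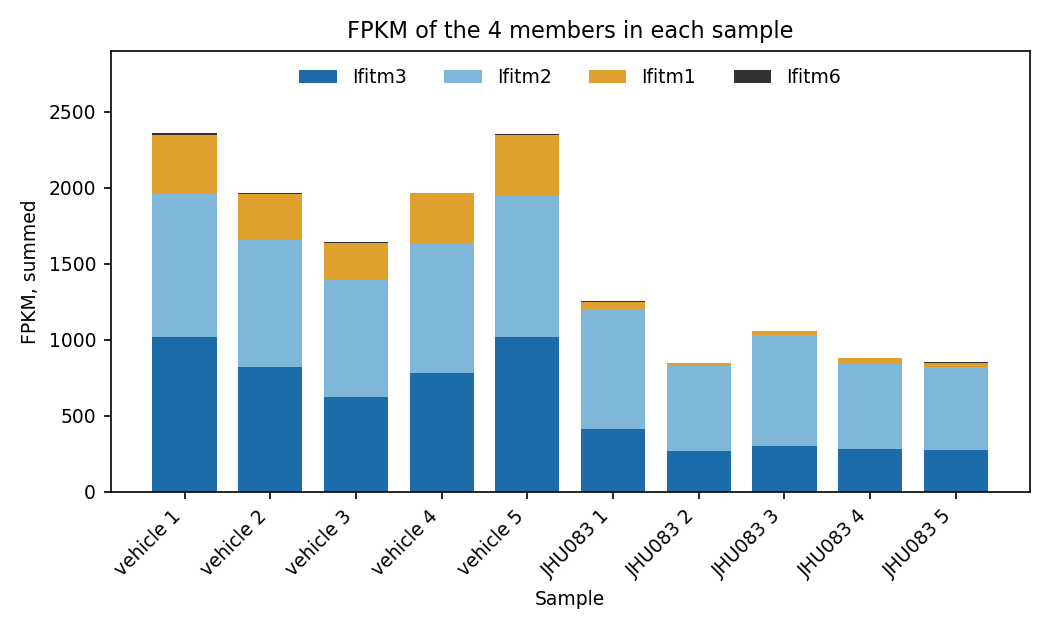
Summed FPKM of the 4 IFITM members in each sample, stacked by member. The sum lies between 1640 and 2358 FPKM in vehicle samples and between 850 and 1252 FPKM in JHU083 samples, where most of it is the locus of Ifitm2; Ifitm6 is too scarce to see in most bars.

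The 2 deposited values also bear on which Ifitm1 transcripts were counted, since the ratio of count to FPKM of a gene is proportional to the transcript length used for it in that sample. For Ifitm1 this ratio was 5.37 to 5.44 in vehicle samples and 5.80 to 6.15 in JHU083 samples, and the groups did not overlap. For Ifitm2 it was 6.42 to 6.46 in vehicle and 6.41 to 6.53 in treated samples. For Ifitm3 the ranges were 6.76 to 6.80 and 6.74 to 6.86, and for Ifitm6 they were 6.54 to 6.75 and 6.57 to 6.64. Ifitm1 has 3 annotated transcripts in GENCODE M21, of 560, 736 and 882 bases. Among 7606 loci that list 1 symbol and have at least 100 fragments in every sample, 0.644% had a higher ratio and 1.17% a lower ratio in all treated samples than in all vehicle samples. The median ratio of Ifitm1 was 11.2% higher in treated samples, and 0.46% of those loci did not overlap and differed by at least as much in either direction. Which transcripts were present was not tested. In FPKM the mean of Ifitm1 was 10.78-fold lower in treated samples, against 9.84-fold in the fit to counts.

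**Figure D3:**
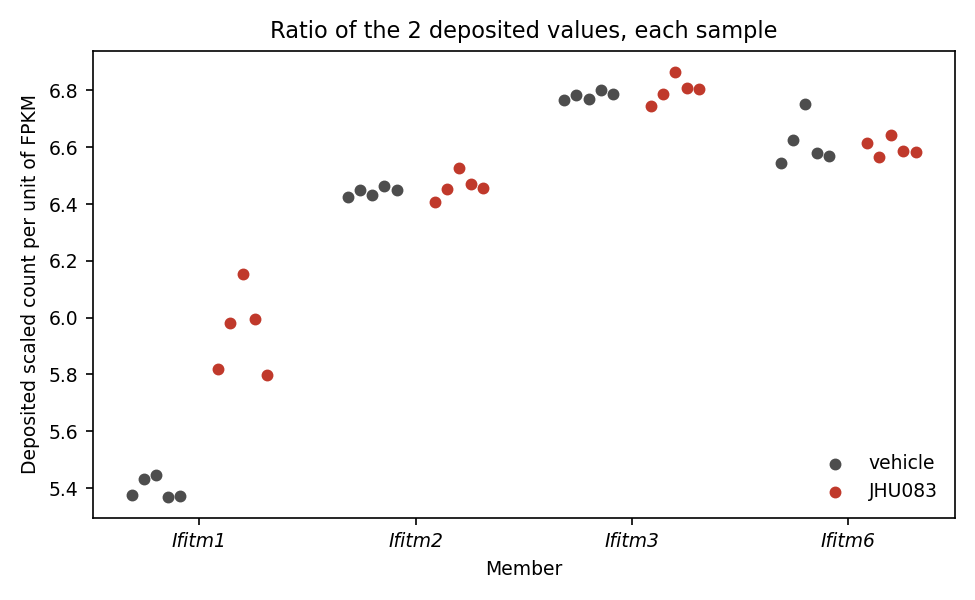
Deposited scaled count divided by deposited FPKM for each IFITM member in each sample, which is proportional to the transcript length used. The ratio of Ifitm1 is 5.80 to 6.15 in JHU083 samples and 5.37 to 5.44 in vehicle samples, while the ranges of the other members overlap between groups.

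The wider family was almost silent or could not be read alone. Ifitm5, a bone-specific member, shares the locus of Ifitm2. Ifitm7, which lies on another chromosome, had at most 4 fragments in any sample. Ifitm10 shares a locus with Ctsd, the abundant lysosomal protease cathepsin D. That joint locus was at 2300 CPM in vehicle and 3130 CPM in treated samples (log2 fold change 0.45, edgeR adjusted p = 0.00887), and it cannot be assigned to Ifitm10. Likewise, Prrt2, a CD225-domain protein of synapses, was listed with Mvp and 3 other symbols (log2 fold change -0.31, edgeR adjusted p = 0.022). Both joint loci lost their call in some alternatives, with an adjusted p of up to 0.0699 for that of Ifitm10 and 0.448 for that of Prrt2 (edgeR).

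Interferon acts on the family through receptors, kinases and transcription factors. Of 9 tested loci of interferon signalling, 1 fell and 3 rose, against 18.3% and 18.4% of all loci. Their median log2 fold change was 0.11. The receptor subunit Ifngr1 rose by 0.53 on the log2 scale (edgeR, adjusted p = 0.000103). The locus holding Ifnar2 with Il10rb rose by 0.27 (edgeR, adjusted p = 0.00375), and the kinase Jak1 rose by 0.40 (edgeR, adjusted p = 0.00133). Among the samples with ribosomal RNA loci at 0, Ifngr1 alone of these loci passed; the adjusted p of the Ifnar2 locus and of Jak1 reached 0.142 and 0.118 among the alternatives (edgeR). The receptor subunits Ifnar1 and Ifngr2 did not pass, with log2 fold changes of 0.17 and 0.11.

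The 1 locus that fell was Stat2, a transcription factor that carries the signal of type I interferon, by 0.45 on the log2 scale (edgeR, adjusted p = 0.00155). Within the samples that had ribosomal RNA fragments it did not pass, and 0 of the 9 loci fell there. The locus of Irf9, the DNA-binding partner of STAT2, did not pass, at -0.12. Other IRF factors, counted here among the interferon-induced genes, did fall: Irf7 went from 274 to 143 CPM and Irf1 from 182 to 95.1 CPM. Their log2 fold changes were -0.94 and -0.93 (edgeR, adjusted p = 8.85e-05 and 1.58e-05). Transcripts of the only ligands looked at here, Ifnb1 and Ifng, were scarce. Ifnb1 was at 0.292 CPM in vehicle and 0.158 CPM in treated samples, and Ifng was at 0.107 and 0.209 CPM. Neither had enough fragments to be tested.

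Many other interferon-stimulated genes were lower too. Of 40 tested genes, 22 fell and 1 rose, against 18.3% and 18.4% of all loci, with a median log2 fold change of -0.41. The largest decrease was that of Isg15, a ubiquitin-like modifier, which went from 73.5 ± 14.1 to 31.1 ± 4.51 CPM (SD, n = 5 each; log2 fold change -1.24, edgeR adjusted p = 1.6e-05). Oas3, a sensor of double-stranded RNA, fell by 1.01 on the log2 scale (edgeR, adjusted p = 3.87e-05), and Slfn5 rose by 0.65 (edgeR, adjusted p = 0.00732; up to 0.352 among the alternatives). Of the 40, 0 had a log2 fold change as low as that of Ifitm3 or Ifitm6, whereas 18 of them were lower than Ifitm2. Ifitm1 also lay below all 40, which is a description since it was chosen for its fall. The difference between Ifitm6 and these genes was not tested, and within the samples with ribosomal RNA loci at 0 Ifitm6 was at -1.10 and Isg15 at -1.13. Within the samples with ribosomal RNA loci at 0, 10 of these genes fell, and within the others 13 fell.

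Most genes induced mainly by interferon-gamma fell. Of 18 tested loci, 16 fell and 0 rose, against 18.3% and 18.4% of all loci, with a median log2 fold change of -0.78. Cxcl10 and Cxcl9, chemokines that attract T cells, had the lowest values. Cxcl10 fell by 1.79 and Cxcl9 by 1.64 on the log2 scale (edgeR, adjusted p = 2.78e-05 and 0.000932). These were the 2 loci of the list below Ifitm3, and 0 were below Ifitm1, which was chosen for its fall.

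Genes whose products modify, carry or bind IFITM proteins showed no common direction. Of 11 tested loci, 2 fell (18.2%) and 2 rose, with a median log2 fold change of 0.06. Over all loci 18.3% fell and 18.4% rose, so these counts were near the shares of all loci. The locus of Nedd4, a ubiquitin ligase that marks IFITM3 for degradation, fell by 1.28 on the log2 scale (edgeR, adjusted p = 0.00612). Vcp, the ATPase that takes up ubiquitinated IFITM3, fell by 0.23 (edgeR, adjusted p = 0.0137). Fyn, a kinase that phosphorylates the sorting signal, rose by 0.69 (edgeR, adjusted p = 0.00297), and Zdhhc20, a palmitoyl transferase for IFITM3, rose by 0.56 (edgeR, adjusted p = 0.00214). Within the samples with ribosomal RNA loci at 0, 0 of the 11 passed in either direction.

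**Figure D4:**
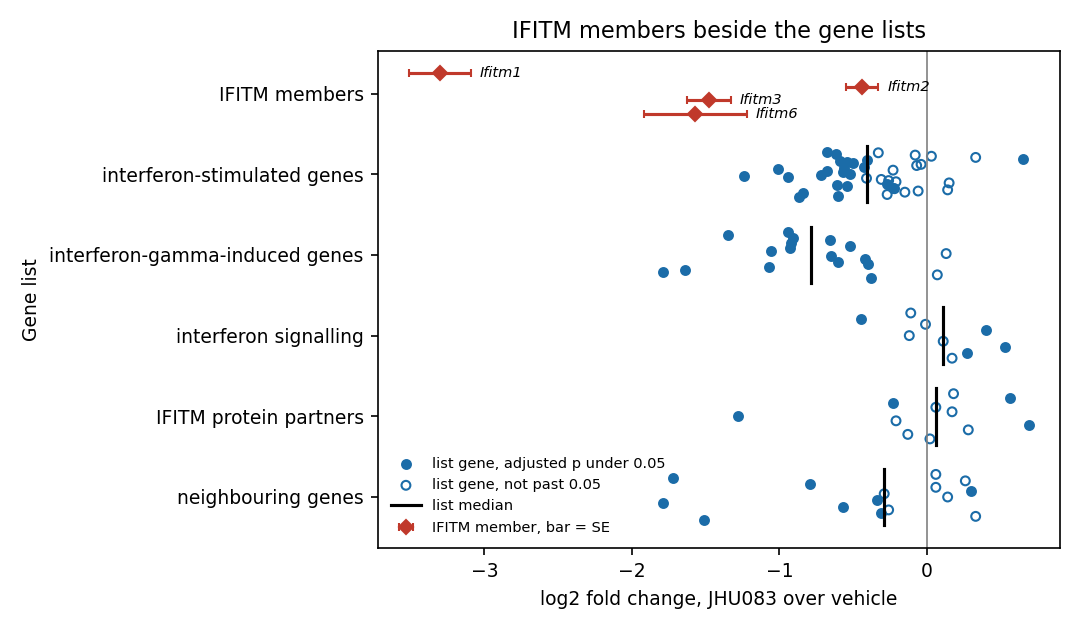
log2 fold change of JHU083 over vehicle for the 4 IFITM members (diamonds, bars are the standard error) and for the genes of 5 lists (filled where the adjusted p is under 0.05), with each list's median as a black line. Ifitm3, Ifitm6 and Ifitm1, the last chosen for its fall, lie below all 40 interferon-stimulated genes. The medians of the interferon-stimulated and interferon-gamma-induced genes are -0.41 and -0.78.

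The genes around the cluster were examined because position was not used to choose the family. Within 200 kb of either end, 15 loci outside the members' own could be tested. Of these, 7 fell and 1 rose, against 18.3% and 18.4% of all loci, with a median log2 fold change of -0.29. Pkp3, a desmosomal protein of epithelia, was the lowest of them and went from 8.69 to 2.51 CPM (log2 fold change -1.79, edgeR adjusted p = 0.000213). Urah, an enzyme of urate breakdown, and B4galnt4, a glycosyltransferase, were at 1.73 and 2.07 CPM in vehicle samples, and fell by 1.72 and 1.51 on the log2 scale (edgeR, adjusted p = 0.00134 and 0.0153). Ric8a, a chaperone of G-protein subunits, rose by 0.30 (edgeR, adjusted p = 0.0193).

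Closer to Ifitm2, the glucosidase gene Pgghg fell by 0.57 on the log2 scale (edgeR, adjusted p = 0.014). On the far side of Ifitm6, Sigirr, an inhibitory receptor of the interleukin-1 receptor family, fell by 0.79 (edgeR, adjusted p = 0.00342). Psmd13 and Hras fell by 0.34 and 0.31 (edgeR, adjusted p = 0.0214 and 0.0439). Within the samples with ribosomal RNA loci at 0, 1 neighbour fell and 0 rose, and within the others 3 fell and 0 rose. Among the alternatives tried, the adjusted p of Pkp3 stayed at or below 0.0404, whereas the other 7 called neighbours each lost their call in at least 1. Their highest values were 0.597 for Hras, 0.587 for Pgghg, 0.354 for Psmd13, 0.196 for B4galnt4, 0.181 for Ric8a, 0.119 for Urah and 0.101 for Sigirr (edgeR).

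**Figure D5:**
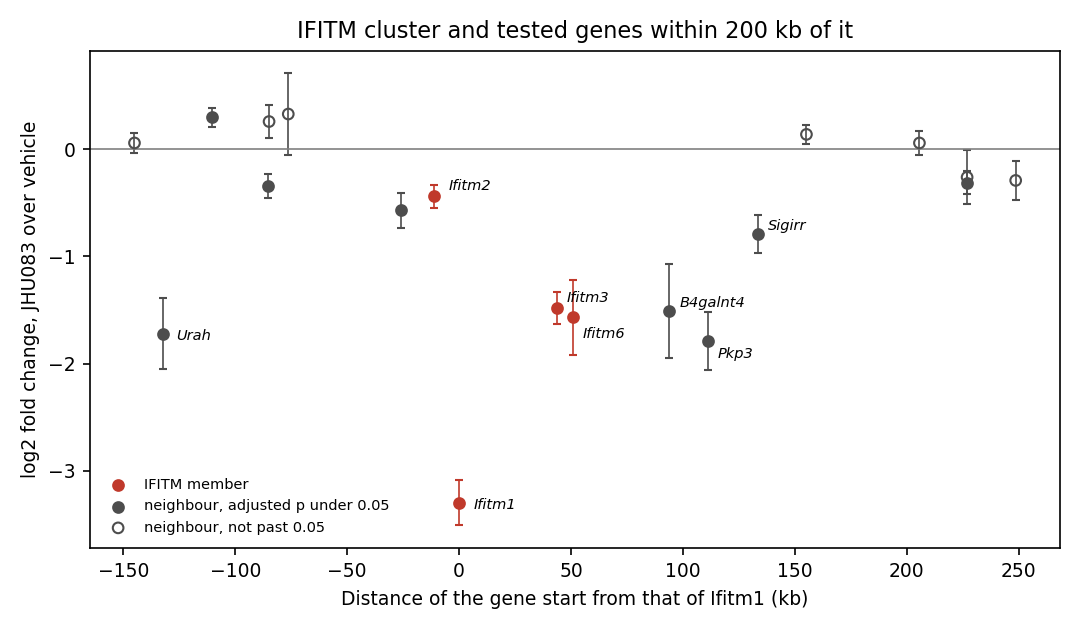
log2 fold change of JHU083 over vehicle, with its standard error, against the distance in kb of each gene's start from that of Ifitm1, for the IFITM members (red) and the tested neighbours within 200 kb (grey, filled where the adjusted p is under 0.05). Ifitm1, which was chosen for its fall, is at -3.30. It lies below every tested neighbour, and the lowest neighbours, Pkp3, Urah and B4galnt4, lie at -1.79, -1.72 and -1.51.

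Markers of other cell types moved with the treatment beside the family. For the counts of markers that follow, the shares over all loci were 18.3% that fell and 18.4% that rose. All 8 tested markers of tumour epithelium fell, 8 of 8, among 9 listed, and their summed level was 293 to 643 CPM in vehicle samples and 102 to 217 CPM in treated samples. Cldn7, a tight-junction protein, had the lowest value of these, at -3.17 (edgeR, adjusted p = 3.74e-05). Of 7 fibroblast markers, 5 fell (Pdgfra the furthest, at -1.17, with an adjusted p of 0.0101 that reached 0.223 among the alternatives), and their sum was 103 to 226 CPM in vehicle and 25.9 to 115 CPM in treated samples. Among 3 tested endothelial markers of 6, 1 fell, and the sum was 122 to 210 CPM in vehicle and 34.5 to 83 CPM in treated samples. That sum was mostly Pecam1, at 151 and 52.5 CPM, while Kdr (9.81 and 8.83 CPM) and Cdh5 (2.64 and 1.88 CPM) did not pass.

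Of 8 tested neutrophil markers among 12, 4 fell and 1 rose, with sums of 357 to 767 CPM in vehicle and 180 to 353 CPM in treated samples, of which Mmp9 made up most (429 and 136 CPM on average). S100a9 had the largest drop and fell by 2.18 on the log2 scale (edgeR, adjusted p = 0.000196), and Csf3r rose by 0.53 (edgeR, adjusted p = 0.000663). The neutrophil genes Camp and Ly6g had at most 3 fragments in any sample. Of 9 tested monocyte markers among 10, 3 fell and 1 rose, and the ranges of their sum, 731 to 918 and 618 to 885 CPM, overlapped. Most of that sum was Ccr2 (332 and 366 CPM) and F13a1 (394 and 321 CPM). Ly6c1 fell by 2.54 on the log2 scale, from 1.93 to 0.328 CPM (edgeR, adjusted p = 6.88e-05), and Vcan fell by 1.06 (edgeR, adjusted p = 0.0129; up to 0.414 among the alternatives). Chil3 rose by 2.08, from 4.94 to 20.8 CPM (edgeR, adjusted p = 0.00374; up to 0.209).

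Of further immune cells, 3 genes each were tested for T and NK cells, for basophils and mast cells, and for eosinophils. For dendritic cells 5 genes were tested and for B cells 1. In each of these 5 lists 1 gene rose and 0 fell, while 18.4% of all loci rose. Cd4 rose by 1.12, from 14.7 to 31.8 CPM (edgeR, adjusted p = 2.07e-05). The other tested T and NK cell genes, Klrb1c (listed with Gm44511 and Klrb1b) and Gzmb, had log2 fold changes of -0.38 and -0.91 and did not pass. The T-cell genes Cd3e, Cd3d, Cd3g, Cd8a, Trac and Trbc2 were at 1.15 CPM or less in every sample and had too few fragments to be tested. The dendritic-cell gene Cd209a rose by 2.09 (edgeR, adjusted p = 0.000363; up to 0.0893 among the alternatives) and the eosinophil gene Siglecf by 0.89 (edgeR, adjusted p = 0.0115; up to 0.158). Cpa3 of mast cells and Cd79b of B cells had log2 fold changes of 0.79 and 0.51, and their calls (edgeR, adjusted p = 0.0455 and 0.0498) were lost in several alternatives, with values up to 0.287 and 0.311. Their sums did not exceed 57 CPM in any sample, and the B-cell gene Ms4a1 had at most 3 fragments. The part of these cell types in the fall of the IFITM genes was not tested.

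Variation of the members within the treatment groups was described beside the summed markers of several cell types. Over the deviations of 10 samples from their group means, Ifitm1 correlated at r = -0.39 with the summed tumour-epithelium markers, -0.08 with fibroblast, -0.58 with endothelial and -0.38 with neutrophil markers. For Ifitm3 these values were -0.50, -0.08, -0.81 and -0.66. For Ifitm2 they were -0.62, -0.40, -0.71 and -0.28, and for Ifitm6 they were -0.22, -0.25, -0.16 and 0.08. With the summed macrophage markers r was 0.65 for Ifitm1, 0.80 for Ifitm3, 0.96 for Ifitm2 and 0.40 for Ifitm6. JHU083 samples 1 and 3, with ribosomal RNA loci at 0, had macrophage sums of 31800 and 32700 CPM, against 25200 to 25800 CPM in samples 2, 4 and 5. Ifitm2 was at 369 and 355 CPM, against 262 to 271 CPM. In the vehicle group both overlapped between these sets of samples. The correlations are descriptions over 10 samples that share library depth and composition. They describe variation within the groups and not the difference between them. Those for endothelial and neutrophil markers rest mainly on Pecam1 and Mmp9, and those of Ifitm6 largely on JHU083 sample 2, where it had 3 fragments.

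Within the groups, deviations were compared among the members and with 10039 loci that have an average log2 CPM of at least 2. Ifitm1 and Ifitm3 correlated at r = 0.89 over the same 10 deviations, and 10 of those loci were more like Ifitm1. With Ifitm1, r was 0.71 for Ifitm2 and 0.73 for Ifitm6, below 283 and 242 loci. Ifitm2 and Ifitm3 correlated at 0.82, and 356 loci were more like Ifitm2. Ifitm6 correlated at 0.50 with Ifitm2 and at 0.53 with Ifitm3, and 2658 and 1512 loci were more like Ifitm2 and Ifitm3, respectively. The values of Ifitm6 rest largely on JHU083 sample 2. Its log2 CPM there was -1.51, on 3 fragments, against 0.26 to 0.66 in the other treated samples.

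The 5 most like Ifitm1 by this measure had r = 0.93 to 0.95. They were Cd74 (listed with Mir5107), H2-Aa, H2-Ab1, Cd14 and Siglece. Cd74, H2-Aa and H2-Ab1 encode the invariant chain and 2 chains of major histocompatibility complex class II, and Cd14 encodes a co-receptor for lipopolysaccharide. Their own log2 fold changes under treatment were small, at -0.01, 0.12, -0.14, 0.16 and 0.07 in that order, so they resembled Ifitm1 within the groups and not across treatment.

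The 3 loci most like Ifitm3 were Ckb, Ctdnep1 and Ms4a4c, at r = 0.95 each. Ms4a4c had the same log2 fold change as Ifitm3, -1.48, whereas Ckb was at -0.60 and Ctdnep1 at -0.08. The loci most like Ifitm2 were Pcx, Plod3 (listed with Mir702) and Hdac6, at r = 0.97 to 0.98. The loci most like Ifitm6 were Hnrnpc, Rala and Gm1821, at 0.95 to 0.96, values that rest largely on JHU083 sample 2, where Ifitm6 had 3 fragments. The median over all loci lay between 0.02 and 0.07.

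Reads could in part be shared between related genes, depending on how the authors counted them. Of the 50-base windows in the annotated transcripts of Ifitm1, 1.42% also occur in another member and 5.02% in any other gene. For Ifitm3 the shares were 5.56% and 10%, with Gm7676 among the other genes for both. For Ifitm2 the share in another member was 3.3%, but 48.5% of its windows occur in some other gene, mainly the overlapping annotation Gm45717 and related pseudogenes. Ifitm6 shared 0 windows with any other gene, but rested on 3 to 60 fragments a sample.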

How the data were processed

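RNA was sequenced from 5 vehicle and 5 JHU083 samples. The submitters' processing notes name bcl2fastq 2.17.1.14, FastQC 0.11.2, TopHat2 2.1.1 and the GRCm38 build; the program that counted and its annotation are not given in the sources used here. Per the file headers the authors deposited raw counts, but the deposited values are not whole numbers and were read like expected counts. Dividing by a step per sample (0.888 to 1.17) gave whole numbers for 99.7% to 99.91% of values, within 0.05, and these were rounded and used as fragments. The authors deposited a second, normalized column, taken as FPKM from its values. The 1 locus with no symbol (0.0017% of fragments) was left out, and 1060 loci list more than 1 symbol (12.7% of fragments).

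Loci were filtered with filterByExpr, scaled by TMM and tested with the quasi-likelihood test of edgeR 4.0.16 (R 4.3.3), with Benjamini-Hochberg adjustment over 12500 loci at 0.05; "rose" and "fell" refer to this threshold. On simulated counts for this comparison (12500 loci, 200 changed by 1 on the log2 scale) it recovered 78.5% of changed loci with 7.65% false calls. Ratios between members, chosen after seeing the values, were tested by exact permutation over 252 splits. With 3 fragments as the floor, levels under 0.269 CPM may be missed; intervals and floors cover counting error only. The alternatives tried included limma-voom (limma 3.58.1), DESeq2 1.42.0, other scalings and filters, sets of samples, a replicate block and leaving out each sample.

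Members and lists were chosen with earlier results of these data known. Genes named besides the members are, for each list, the called genes furthest from 0 in each direction, receptors and transcription factors of the interferon signalling list, called neighbours within 200 kb and the loci most like each member; Vcp, Zdhhc20, Jak1, Irf1, Irf7, Mmp9, Kdr, Cdh5, Vcan, Ccr2, F13a1, Klrb1c, Gzmb, the ligands and markers near 0 were named after their values were seen. Some listed genes are not reported here and were left out of the lists. Deviations were taken from group means of log2 CPM with a prior count of 2.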

Additional observations from a re-analysis of the deposited data

Results flagged for a closer look

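In 1 treated sample, JHU083 sample 2, Ifitm6 stood apart from the rest of its group. Its log2 CPM was -1.51, where the other 4 treated samples lay between 0.26 and 0.66, and it rested on 3 fragments. The gap to the nearest sample, as a share of the group's range (0.814), exceeded Dixon's critical value of 0.71. Among 62 groups of values examined, 1 stood out in this way, and chance gives about 3.1.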

How the results depend on the processing

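All 4 members stayed lower in JHU083 samples under every alternative that gave a value. Ifitm6 could not be fitted with at least 50 counts in 5 samples required, nor Ifitm2 with loci listing 1 symbol only. Leaving out 1 sample at a time gave log2 fold changes of -3.51 to -3.17 for Ifitm1, -0.52 to -0.39 for Ifitm2, -1.60 to -1.41 for Ifitm3 and -1.75 to -1.31 for Ifitm6. The adjusted p over all alternatives ranged from 0.000479 to 0.295 for Ifitm2, from 4.14e-20 to 0.00346 for Ifitm3 and from 8.82e-05 to 0.131 for Ifitm6. The highest value of each came from the 3 vehicle and 2 JHU083 samples with ribosomal RNA loci at 0, where the log2 fold changes of Ifitm2 and Ifitm6 were -0.20 and -1.10 (edgeR). In that set the ratio of Ifitm3 to Ifitm2 differed by -1.10, that of Ifitm6 to Ifitm2 by -0.87 and that of Ifitm6 to Ifitm3 by 0.23. In the other set these were -0.94, -1.72 and -0.77, and exact tests of 3 against 2 samples cannot pass the threshold. Without 1 sample the ratios ranged from -1.09 to -0.96, from -1.48 to -0.86 and from -0.44 to 0.15, the highest of the last 2 without JHU083 sample 2.

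Of all loci, 2296 were higher and 2293 lower; with library size only these were 1564 and 3141, and without 1 sample 1823 to 2896 and 1899 to 2931. Within the samples with ribosomal RNA loci at 0, 531 were higher and 585 lower, and within the others 1276 were higher and 1542 lower. In the first set the interferon-stimulated genes gave 10 lower and 0 higher, interferon signalling 1 higher, the partner genes 0 lower and 0 higher, and the neighbours 1 lower and 0 higher. In the other set the interferon-stimulated genes gave 13 lower and 2 higher, interferon signalling 0 lower, the partner genes 1 lower, and the neighbours 3 lower and 0 higher. With loci listing 1 symbol only, the partner genes gave 1 lower, as they did with no filter. Library size only gave 0 neighbours higher. Without 1 sample the interferon-stimulated genes gave 20 to 24 lower and 1 to 3 higher, and the interferon-gamma-induced genes 14 to 16 lower and 0 to 1 higher. The cause of these differences was not tested, beyond the smaller number of samples or loci in each.

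The groups share replicate numbers, but the numbers do not pair the samples: deviations of same-numbered samples correlated at -0.57 to 0.09. With the replicate block the log2 fold changes were -3.33, -0.45, -1.47 and -1.60 for Ifitm1, Ifitm2, Ifitm3 and Ifitm6, and 0 neighbours were higher; 1612 loci were higher and 1757 lower. By CPM per kilobase, Ifitm1 made up 10.5% of the family in vehicle and 2.13% in JHU083 samples.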
